A study of Gallus gallus with 12 samples.

Results

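Liver RNA of Luhua hens at sexual maturity (SM, day 133) was compared with liver RNA of Luhua hens at broodiness (BP, day 400). The comparison holds 6 of the 12 livers of the study, 3 female birds at each stage, and every liver gave its own strand-specific library. None of the birds was labelled as treated. The other 6 livers came from females of the same breed at the juvenile stage (JP, day 60) and at peak laying (PL, day 220), again 3 a stage. Each stage was sampled at a single age and from other birds, so stage and age cannot be told apart. An mRNA or long non-coding RNA (lncRNA) transcript was a member if its FPKM exceeded 0.1 in at least 3 of the 6 SM and BP livers. FPKM is the number of fragments counted on a transcript, divided by its length and by the size of the library. This rule kept 16094 of 18260 mRNAs and 4970 of 16930 lncRNAs.

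The liver of a hen makes the yolk proteins and the lipoprotein particles that are carried in blood to the growing follicles, and estrogen from the ovary drives much of this synthesis. At sexual maturity the ovary begins to recruit yolky follicles. At broodiness the hen stops laying, her ovary regresses and prolactin is high while she incubates. An lncRNA is a long transcript without a coding sequence, and many are found in few tissues or at few stages.

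The transcripts are given by Ensembl transcript ID (mRNAs) or by the ID from the study's assembly (TCONS, lncRNAs). The files pair these IDs with no gene names, so no gene function is given and the hepatocyte markers that would check the tissue label could not be looked up. In bulk tissue, fewer cells of a type and less RNA per cell cannot be told apart. The SM libraries held 101444286 to 113965610 clean reads and the BP libraries 93114962 to 101810298, of which 92.37 to 92.98% and 92.2 to 92.6% were mapped. The mapped share was 95.43 to 96.26% in the JP livers and 95.44 to 96.06% in the PL livers. The summed lncRNA FPKM was 7070 to 8583 over the SM and BP livers and 3106 to 3985 over the JP and PL livers, and the summed mRNA FPKM 688208 to 772041 and 408296 to 539529. The SM and BP libraries thus stood apart from the JP and PL libraries. No label names a batch, and wherever SM or BP is set beside JP or PL, stage and library cannot be told apart. Values of a stage are listed in the order of replicates 1, 2 and 3.

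A few transcripts held much of the summed FPKM of every SM and BP liver. The 5 most abundant mRNAs of each liver held 41.5% ± 1.91 (SD, n = 3) of the summed mRNA FPKM at SM and 46.6% ± 2.12 (SD, n = 3) at BP, with no overlap (two-sided exact permutation p = 0.1, which is the lowest value 3 against 3 livers can reach). The summed mRNA FPKM was 688208 to 727595 at SM and 741757 to 772041 at BP (exact permutation p = 0.1). Between 1009 and 1104 mRNAs were listed at 0 in an SM liver and between 1111 and 1401 in a BP liver (exact permutation p = 0.1). The median of the tested mRNAs on the log2(FPKM + 1) scale was 2.34 ± 0.05 at SM and 2.19 ± 0.08 at BP (SD, n = 3, exact permutation p = 0.1). For mRNAs, the BP livers therefore had a larger sum, more of it in the top transcripts, more mRNAs at 0 and a lower median. Among lncRNAs the share of the top 5 was 22.9% ± 1.78 at SM and 32.2% ± 3.41 at BP (SD, n = 3, exact permutation p = 0.1). The other lncRNA measures overlapped between the stages. Exact permutation p was 0.3 for the summed FPKM, 0.3 for the number listed at 0 and 0.4 for the median.

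Among single abundant mRNAs, ENSGALT00000043486 was at 91617, 71819.7 and 66802 FPKM at SM and at 102216, 118758 and 126861 FPKM at BP. All BP livers lay above all SM livers, and the mRNA took 10.9% of the summed FPKM at SM and 15.3% at BP. ENSGALT00000045308 took 7.01% and 10.3%, again without overlap. Neither passed the test (limma adjusted p = 0.63 and 0.55, Benjamini-Hochberg). Both were far lower in the other livers, with 643 to 1655 FPKM of ENSGALT00000043486 and 578 to 1468 FPKM of ENSGALT00000045308 over the JP and PL livers. ENSGALT00000028633 took 9.60% at SM and 8.88% at BP, and ENSGALT00000069352 took 8.50% and 7.71%. The stages overlapped for both. ENSGALT00000042470 was at 40539, 35692 and 39677 FPKM at SM and at 31576, 30891 and 36977 FPKM at BP, while no JP or PL liver exceeded 12.2 FPKM. Its SM and BP values overlapped and its share was 5.48% against 4.38%.

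Differences between SM and BP were tested with limma on log2(FPKM + 1), and calls needed an adjusted p (Benjamini-Hochberg) below 0.05 as well as a change of 1.5-fold or more. Of the mRNAs, 203 (1.26% of those tested) were called. They comprised 77 that were higher at BP (0.478%) and 126 that were lower (0.783%). The median change of all tested mRNAs was -0.09 on the log2 scale, while the called mRNAs had medians of 1.49 (higher) and -1.15 (lower). After median-ratio scaling, which sets the typical mRNA of every liver to 1 level, the median of all tested mRNAs was 0.01 and the called mRNAs were 99 higher and 82 lower, so the higher share was 54.7% in place of 37.9%. All 203 called mRNAs had SM and BP values that did not overlap, as had 23.7% of the tested mRNAs. The number of calls depended on single livers. It was 119, 107 and 83 without SM replicate 1, 2 and 3, 116 without BP replicate 2 and 440 without PL replicate 3. PL replicate 3 entered only through the shared estimate of the spread, which also uses the mean level over all livers. Under all 14 alternative analyses, 34 were called, 19 higher and 15 lower at BP, of 178 that every alternative could test.

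The calls were also counted by level, taken as the mean FPKM over the SM and BP livers, which a rise or fall at BP itself moves. Of 547 mRNAs with a mean above 100 FPKM over the 6 livers, 17 were called (3.11%), 15 higher and 2 lower at BP. Of these 15, 6 exceeded 100 FPKM in the SM mean as well and 9 through the BP livers only, so the split is partly set by the sorting. Of the 4455 mRNAs at or below 1 FPKM, 36 were called (0.808%), 5 higher and 31 lower. Between 1 and 10 FPKM 93 of 6990 were called (1.33%), of which 29 rose and 64 fell. Between 10 and 100 FPKM 57 of 4102 were called (1.39%), of which 28 rose and 29 fell. A change on the log2(FPKM + 1) scale understates the change of low transcripts.

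**Figure D1:**
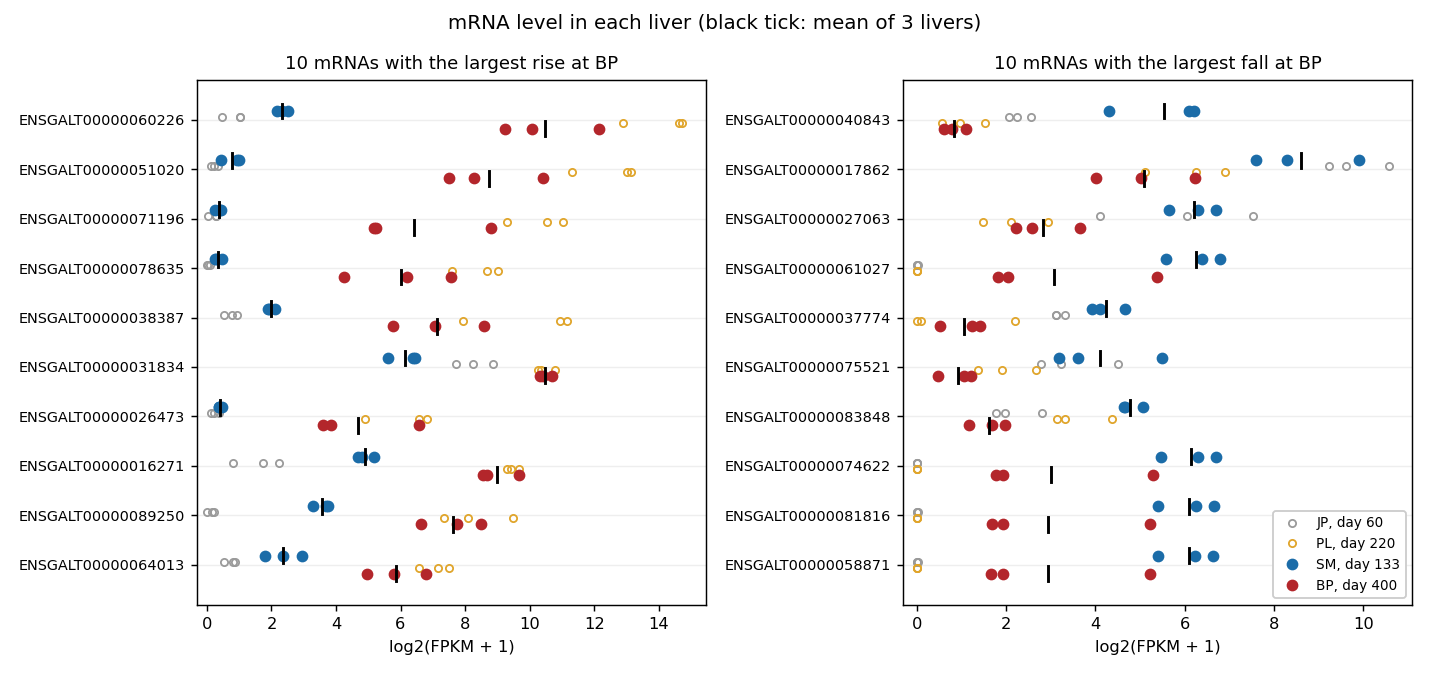
Level on the log2(FPKM + 1) scale (x axis) of the 10 mRNAs with the largest rise (left) and the 10 with the largest fall (right) at BP, 1 point a liver, with SM and BP filled, JP and PL open, and a black tick at the mean of 3 livers. Filled points of SM and BP do not overlap for any mRNA, and 9 of the 10 rising mRNAs have their highest BP value in replicate 2.

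The largest rise was that of ENSGALT00000060226, which was at 3.97, 4.70 and 3.48 FPKM at SM and at 601, 4567 and 1076 FPKM at BP. Every BP liver stood far above every SM liver, and replicate 2 stood above the other BP livers. The mean was 514-fold higher at BP (log2 difference 8.16, SE 0.63, limma adjusted p = 0.00012), and 207-fold without BP replicate 2. At the other stages it was at 0.395, 1.05 and 1.03 FPKM (JP) and at 27300.3, 25146 and 7674 FPKM (PL). Its level at BP thus lay between SM and PL.

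ENSGALT00000051020 followed the same course at a lower level. It was at 0.895, 1.0 and 0.36 FPKM at SM and at 179, 1364 and 308 FPKM at BP, 821-fold higher in the mean (log2 difference 7.94, SE 0.62, limma adjusted p = 0.00012). Without BP replicate 2 it was 324-fold higher. The BP livers kept the order they had for ENSGALT00000060226. The ratio of ENSGALT00000060226 to ENSGALT00000051020 was 3.35, 3.35 and 3.49 in the BP livers and 3.0, 3.06 and 3.04 in the PL livers. In the SM livers, where both were low, it was 4.44, 4.69 and 9.66. Whether both mRNAs share fragments was not tested, since no transcript sequence was read.

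Other mRNAs rose from below 1 FPKM. ENSGALT00000071196 was at 0.315, 0.194 and 0.367 FPKM at SM and at 35.0, 447 and 37.1 FPKM at BP (log2 difference 6.04, SE 0.76, limma adjusted p = 0.00246). ENSGALT00000078635 was at 0.382, 0.201 and 0.204 FPKM at SM and at 18.2, 188 and 72.6 FPKM at BP (log2 difference 5.68, SE 0.61, limma adjusted p = 0.000997). In both, BP replicate 2 was several times the other BP livers and replicate 1 the lowest. ENSGALT00000026473 went from 0.293, 0.283 and 0.376 FPKM to 11.2, 94.9 and 13.4 FPKM (log2 difference 4.28, SE 0.66, limma adjusted p = 0.00934). Its BP replicates 1 and 3 were close to each other.

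The rest of the 10 started from a measurable level at SM. ENSGALT00000031834 was at 47.4, 86.6 and 83.0 FPKM at SM and at 1653, 1363 and 1279 FPKM at BP (log2 difference 4.33, SE 0.31, limma adjusted p = 0.00012). It was the exception among the 10, since its BP livers were close together, replicate 1 was the highest of them, and its JP livers (301, 211 and 463 FPKM) stood above SM. ENSGALT00000016271 was at 26.8, 34.9 and 24.7 FPKM at SM and at 378, 815 and 413 FPKM at BP (log2 difference 4.10, SE 0.35, limma adjusted p = 0.000224). Its BP livers all exceeded the highest SM liver many times over. ENSGALT00000038387, ENSGALT00000089250 and ENSGALT00000064013 rose by 5.17, 4.05 and 3.49 on the log2 scale, to 53.1 to 385, 99.4 to 358 and 30.3 to 110 FPKM at BP. All 10 mRNAs were called under each of the 14 alternatives. The BP order was mostly shared, with replicate 2 the highest in 9 of the 10 and replicate 1 the lowest in 9. Over all 77 rising mRNAs the highest BP liver was replicate 1 in 36, replicate 2 in 27 and replicate 3 in 14, and over all tested mRNAs in 5699, 3171 and 7205.

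The remaining 67 mRNAs called higher at BP rose by 0.62 to 3.17 on the log2 scale, with a median of 1.42. ENSGALT00000086450 was at 10.4, 8.30 and 7.22 FPKM at SM and at 82.3, 107 and 70.1 FPKM at BP (log2 difference 3.17, SE 0.31, limma adjusted p = 0.000613). Its BP livers lay far above its SM livers, and its PL livers were higher again, at 542, 350.1 and 220.0 FPKM. The mRNAs that were highest at BP formed another pattern. ENSGALT00000085587 was at 15.8, 11.7 and 9.0 FPKM at SM and at 99.1, 102 and 49.8 FPKM at BP (log2 difference 2.65, SE 0.35, limma adjusted p = 0.00408), against 7.0 to 13.9 FPKM at PL. ENSGALT00000046971 was at 197, 184 and 173 FPKM at SM and at 983, 898 and 522 FPKM at BP (log2 difference 2.06, SE 0.28, limma adjusted p = 0.00472), against 199 to 449 FPKM over the JP and PL livers. For both, every BP liver stood above the other 9 livers. These 3 mRNAs were picked after their values were seen, as called under all 14 alternatives.

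BP replicate 3 was the lowest BP liver for a pair of abundant mRNAs of the same pattern. ENSGALT00000022308 was at 137, 120.1 and 169 FPKM at SM and at 1044, 790.4 and 391 FPKM at BP (log2 difference 2.28, SE 0.43, limma adjusted p = 0.0258). ENSGALT00000055464 was at 65.3, 35.1 and 55.7 FPKM at SM and at 344, 364 and 132 FPKM at BP (log2 difference 2.31, SE 0.43, limma adjusted p = 0.0249). In both the BP livers stayed above SM, but other livers came close to BP replicate 3 or passed it. PL replicate 3 had ENSGALT00000022308 at 383 FPKM. ENSGALT00000055464 was at 178 FPKM in PL replicate 3 and at 169, 171 and 134 FPKM in the JP livers, all above BP replicate 3. With a fit of the 6 livers alone the adjusted p was 0.0415 for ENSGALT00000022308 and 0.0528 for ENSGALT00000055464, which ended the latter call. Both were named after their values were seen.

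The largest fall was that of ENSGALT00000040843, from 67.6, 72.8 and 18.6 FPKM at SM to 0.723, 0.514 and 1.14 FPKM at BP. The lowest SM liver was still many times the highest BP liver, and the JP and PL livers (0.472 to 4.92 FPKM) stayed below SM too. The mean was 66.8-fold lower at BP (log2 difference -4.71, SE 0.43, limma adjusted p = 0.000366), and the call held in all 14 alternatives. ENSGALT00000083848 fell from 23.8, 32.5 and 24.3 FPKM to 1.26, 2.94 and 2.21 FPKM (log2 difference -3.18, SE 0.35, limma adjusted p = 0.000997) and was also called in all 14. It was the other of the 10 largest falls for which that was so. ENSGALT00000037774 fell from 14.2, 24.5 and 16.2 FPKM to 1.66, 0.423 and 1.36 FPKM (log2 difference -3.18, SE 0.48, limma adjusted p = 0.00848) and was called in 13. The SM and BP livers were well apart for both.

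Other large falls were called in fewer of the alternatives. ENSGALT00000017862 was at 954, 194 and 311 FPKM at SM and at 31.3, 73.8 and 15.1 FPKM at BP (log2 difference -3.52, SE 0.67, limma adjusted p = 0.0258). A fit of the 6 livers alone gave an adjusted p of 0.0637. The JP livers had it at 599 to 1526 FPKM and the PL livers at 33.8 to 118 FPKM, so the range of SM overlapped that of JP and the range of BP that of PL. ENSGALT00000027063 (chromosome 1, 132569388 to 132572872, Gallus_gallus-5.0) was at 77.6, 49.2 and 103 FPKM at SM and at 11.5, 4.96 and 3.70 FPKM at BP (log2 difference -3.40, SE 0.70, limma adjusted p = 0.0355). Its SM and BP livers were well apart, and the 6 livers alone gave an adjusted p of 0.0156, but its JP livers ranged from 16.2 to 185 FPKM. It was called in 6 of the 14 alternatives. ENSGALT00000075521 fell from 43.8, 8.13 and 11.3 FPKM to 1.31, 0.395 and 1.09 FPKM (log2 difference -3.18, SE 0.57, limma adjusted p = 0.0202), and the 6 livers alone gave 0.0512. Only 4 of the 10 largest falls passed the adjusted p threshold in the fit of the 6 livers.

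The remaining 4 of the 10 had nearly proportional values. ENSGALT00000061027, ENSGALT00000074622, ENSGALT00000081816 and ENSGALT00000058871 were at 41.1 to 46.7 FPKM in SM replicate 1, 98.6 to 110.4 in replicate 2 and 74.2 to 82.8 in replicate 3. At BP they were at 36.2 to 40.4 FPKM in replicate 1, but at 2.79 to 3.09 in replicate 2 and 2.17 to 2.53 in replicate 3. BP replicate 1 thus lay next to SM replicate 1, and the other BP livers lay far below. The log2 differences were -3.18 to -3.15 (limma adjusted p = 0.0491 to 0.0499) and the calls held in 3 of the 14 alternatives, with adjusted p of 0.128 to 0.13 in the fit of the 6 livers. No JP or PL liver exceeded 0.0139 FPKM, so these livers added almost nothing to the pooled spread. A further set with the same course, ENSGALT00000047856, ENSGALT00000087048, ENSGALT00000087030 and ENSGALT00000086261, was at 5.55 to 12.5 FPKM over the SM livers. It was at 4.14 to 4.72 FPKM in BP replicate 1 and at 0.14 to 0.248 FPKM in the other BP livers, and was listed at 0 in all JP and PL livers.

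Of each set 1 position was known on chromosome 1 of Gallus_gallus-5.0, 101041201 to 101041500 for ENSGALT00000081816 and 101040919 to 101041077 for ENSGALT00000047856. These transcripts of 300 and 159 bp of genome lie side by side. Values that keep 1 ratio in all livers can come from fragments shared among near-identical copies. No transcript sequence was read, so this was not tested, and the level of each of these mRNAs is uncertain. Among the 167 called mRNAs above 0.1 FPKM in all 6 livers, 16 of 13861 possible pairs kept their ratio within a range of 0.3 on the log2 scale, and 16 mRNAs were in such pairs.

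The remaining 116 mRNAs called lower at BP had differences of -2.56 to -0.59 on the log2 scale, with a median of -1.11. ENSGALT00000052828 was at 69.3, 84.1 and 125 FPKM at SM and at 19.7, 19.2 and 20.6 FPKM at BP (log2 difference -2.12, SE 0.20, limma adjusted p = 0.000412). The BP livers nearly coincided, and the JP and PL livers were lower still at 4.04 to 8.36 FPKM. ENSGALT00000067031 (chromosome 1, 147921125 to 148002972) was at 10.7, 15.2 and 12.5 FPKM at SM and at 0.972, 2.35 and 2.49 FPKM at BP (log2 difference -2.27, SE 0.28, limma adjusted p = 0.00205). No liver outside SM exceeded the highest BP liver. ENSGALT00000073871 fell from 3.50, 5.53 and 7.52 FPKM to 0.275, 0.390 and 0.272 FPKM (log2 difference -2.26, SE 0.24, limma adjusted p = 0.000972). It was also lower at PL than at JP. These 3 were chosen after their values were seen, as called under all 14 alternatives.

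Positions were known for 28 of the 203 called mRNAs, all on chromosome 1, because the transcript list used here held 1998 mRNAs. Among the 28, 5 had another called mRNA within 10000 bp. How often tested mRNAs lie this close was not counted, so this count is a description only. The 5 included ENSGALT00000081816 and ENSGALT00000047856, described above, which may share fragments. A cluster of 3 lay between 194201670 and 194208212 (Gallus_gallus-5.0), and all 3 fell. ENSGALT00000036389 (194201670 to 194202812) was at 1.12, 1.98 and 1.67 FPKM at SM and at 0.230, 0 and 0 FPKM at BP (log2 difference -1.26, SE 0.25, limma adjusted p = 0.0296). ENSGALT00000045088 (194205316 to 194206557) was at 43.6, 46.9 and 43.2 FPKM at SM and at 8.16, 13.1 and 13.6 FPKM at BP (log2 difference -1.88, SE 0.28, limma adjusted p = 0.00851). With ENSGALT00000083848 (194206706 to 194208212), described above, no SM liver overlapped a BP liver in any of the 3. The other 7 tested mRNAs with a known position within 30000 bp were not called. Their differences were -0.29 to 0.28 on the log2 scale. Tested mRNAs without a known position could not be placed, so the limits of the cluster are not known. ENSGALT00000036389 was called in 9 of the 14 alternatives and ENSGALT00000045088 in all. The cluster was noticed after the values were seen.

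The levels of the called mRNAs were also read in the JP and PL livers, which share no bird with SM and BP. They stand in the same fit and so share its estimate of the spread, which also uses the mean level over all livers. Calls between JP and PL are thus not independent of calls between SM and BP. Of the 77 mRNAs higher at BP, 57 had a higher mean at PL than at JP, as had 42.9% of all tested mRNAs. Between JP and PL 19.8% of all tested mRNAs were called, 6.7% higher and 13.1% lower at PL. Of the 77, 40 were called higher at PL and 3 lower. Their median difference between PL and JP was 0.90 on the log2 scale, beside -0.05 over all tested mRNAs. Across the 77 mRNAs, the difference between BP and SM and that between PL and JP had a Pearson r of 0.861 and a Spearman rho of 0.472, as a description of transcripts that share the same livers. Over all 16094 mRNAs the values were 0.337 and 0.134. Of the 4 stages, BP had the highest mean for 52 of the 77, PL for 24 and JP for 1. Their choice leaves SM no place in this count, and over all tested mRNAs BP was highest for 22.7%, PL for 11.9%, JP for 20.1% and SM for 45.3%. All 10 of the largest rises were among the 40 called higher at PL, and PL exceeded BP in 9 of them.

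**Figure D2:**
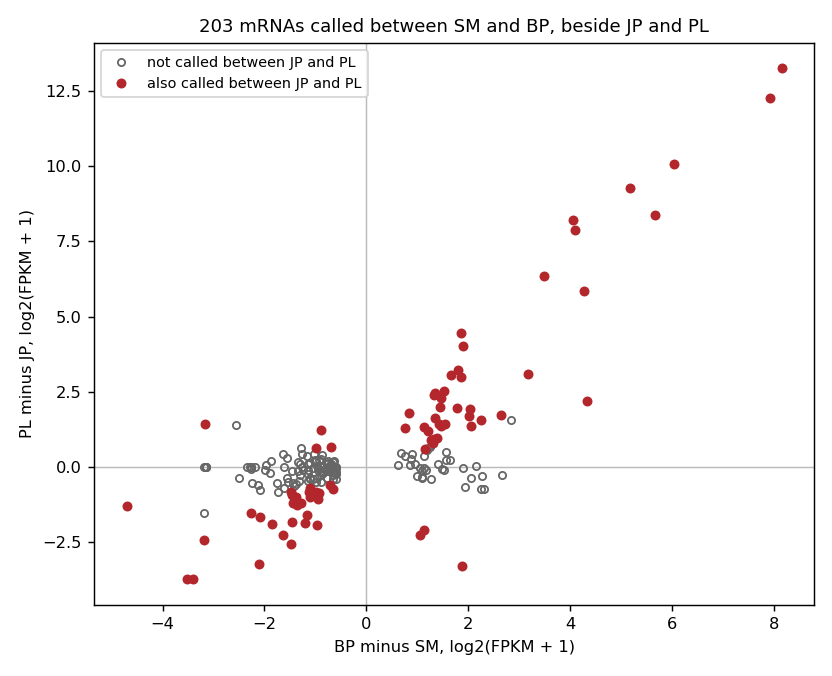
Difference between BP and SM (x axis) and between PL and JP (y axis), both on the log2(FPKM + 1) scale, for each of the 203 mRNAs called between SM and BP, with those also called between JP and PL filled. The largest rises at BP lie at the upper right, up to 8.16 and 13.24 for ENSGALT00000060226, and most falls lie near or below 0 on the y axis.

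Of the 77 rising mRNAs, 20 had a lower mean at PL than at JP, and 3 of these were called lower at PL. ENSGALT00000031546 was at 21.3, 15.2 and 13.6 FPKM at SM and at 137, 49.7 and 35.9 FPKM at BP (log2 difference 1.87, SE 0.40, limma adjusted p = 0.0428), but at 204, 225 and 199 FPKM at JP and 17.6, 15.5 and 31.0 FPKM at PL. It was called in 6 of 14 alternatives. ENSGALT00000042288 rose from 37.9, 65.2 and 48.1 FPKM to 94.2, 108 and 126 FPKM (log2 difference 1.13, limma adjusted p = 0.0197) and ENSGALT00000042254 from 29.6, 39.1 and 42.7 FPKM to 67.1, 66.6 and 103 FPKM (log2 difference 1.05, limma adjusted p = 0.0197). Both had 13.6 to 22.5 FPKM in the JP livers and 2.22 to 3.76 in the PL livers. Of the 3, none passed in the fit of the 6 livers alone (adjusted p = 0.0982, 0.0579 and 0.07). They were named after their values were seen.

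For the 126 mRNAs lower at BP, SM had the highest mean of the 4 stages for 112, JP for 12 and PL for 2. SM was the highest stage for 45.3% of all tested mRNAs, and the choice of the 126 leaves BP no place. Over all 16094 tested mRNAs, 6911 had a higher and 9043 a lower mean at PL than at JP. Of all tested mRNAs 6.7% were called higher and 13.1% lower at PL, with a median difference of -0.05. Of the 126, 33 had a higher and 86 a lower mean at PL than at JP. Among the 126, 4 were called higher and 28 called lower at PL, and the median difference was -0.14. ENSGALT00000083848 was among the 4, with 5.98, 2.44 and 2.95 FPKM at JP and 8.95, 7.87 and 19.7 FPKM at PL (log2 difference 1.42, SE 0.35, limma adjusted p = 0.0113). The other 3 were ENSGALT00000070155, ENSGALT00000012032 and ENSGALT00000071236, which fell by 0.98, 0.89 and 0.69 on the log2 scale at BP and were called in 4, 2 and 7 of 14 alternatives.

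**Figure D3:**
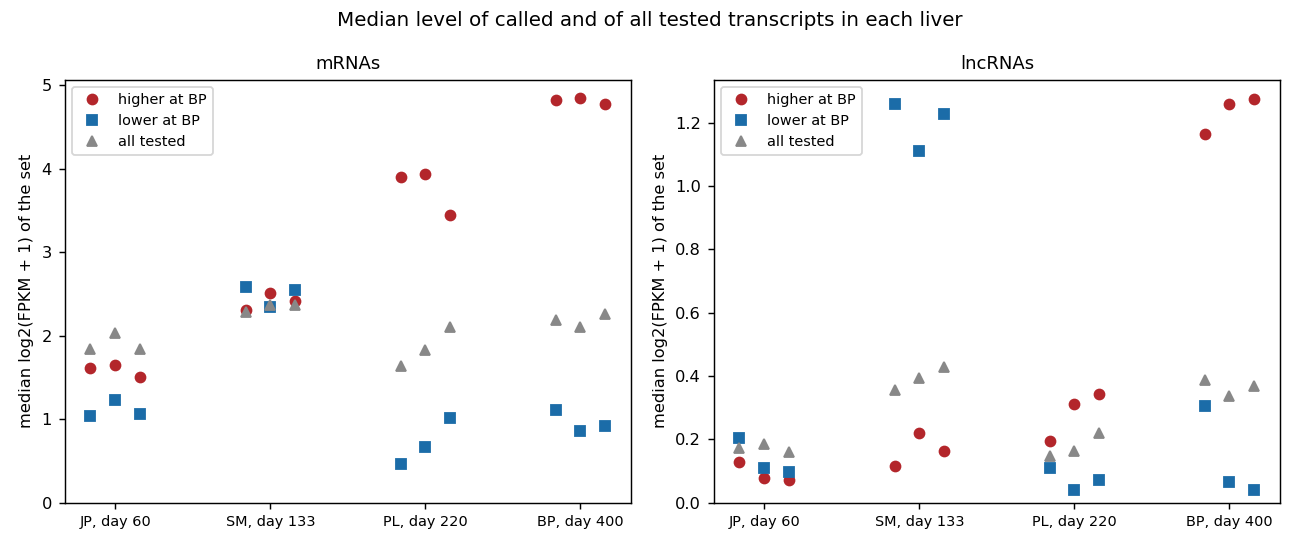
Median log2(FPKM + 1) (y axis) over the transcripts called higher at BP, called lower at BP and all tested, 1 point for each of 12 livers by stage (x axis), for mRNAs (left) and lncRNAs (right). The rising mRNAs were at 1.51 to 1.65 in JP and 3.44 to 3.94 in PL livers, and the falling lncRNAs were at 1.11 to 1.26 in SM livers and at most 0.30 in all others, where SM and BP values follow from the choice of transcripts.

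The JP and PL livers entered the choice through the shared spread, and their levels entered through its trend with the mean level. In these livers all tested mRNAs had medians of 1.64 to 2.1 on the log2 scale. The rising mRNAs had medians of 1.51 to 1.65 (JP) and 3.44 to 3.94 (PL). Their PL livers thus stood apart from their JP livers. The falling mRNAs had medians of 1.03 to 1.23 (JP) and 0.47 to 1.02 (PL). PL replicate 3, with 1.02, was the closest of the PL livers to JP.

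Few mRNAs were found at 1 of the 2 stages only. Of the 16094 tested, 19 were above 0.1 FPKM in all SM livers and listed at 0 in all BP livers, and 5 were of the opposite kind. Called were 6 of the 19 and 0 of the 5, beside 1.26% of all tested mRNAs. As these mRNAs were chosen for a difference between the stages, the counts are a description only. Each BP liver also listed more mRNAs at 0 (1111 to 1401) than any SM liver (1009 to 1104). Above 1 FPKM only 2 of the 19 remained, ENSGALT00000057512 and ENSGALT00000079763. ENSGALT00000079763 was at 1.84, 2.05 and 1.02 FPKM at SM and was listed at 0 in the BP livers, while the JP and PL livers had it at 1.44 to 4.76 FPKM (limma adjusted p = 0.0140 between SM and BP). BP was the only stage at which all livers listed it at 0.

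Of the lncRNAs, 101 (2.03% of 4970 tested) were called, 38 higher (0.765%) and 63 lower (1.27%) at BP. The medians were 1.02 and -0.86 on the log2 scale, beside -0.03 over all tested lncRNAs. SM and BP values did not overlap in 100 of the 101, as in 19.3% of the tested lncRNAs. After median-ratio scaling the calls were 19 higher and 18 lower, so the higher share was 51.4% in place of 37.6%, and the 6 livers alone gave 13 and 13. All but 2 of the called lncRNAs had a mean at or below 10 FPKM. Of 811 between 1 and 10 FPKM, 38 were called (4.69%), and of 4085 at or below 1 FPKM, 61 (1.49%). Under all 14 alternatives 12 lncRNAs were called, 5 higher and 7 lower, of 46 that every alternative could test, since 55 did not pass the filter at 1 FPKM.

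**Figure D4:**
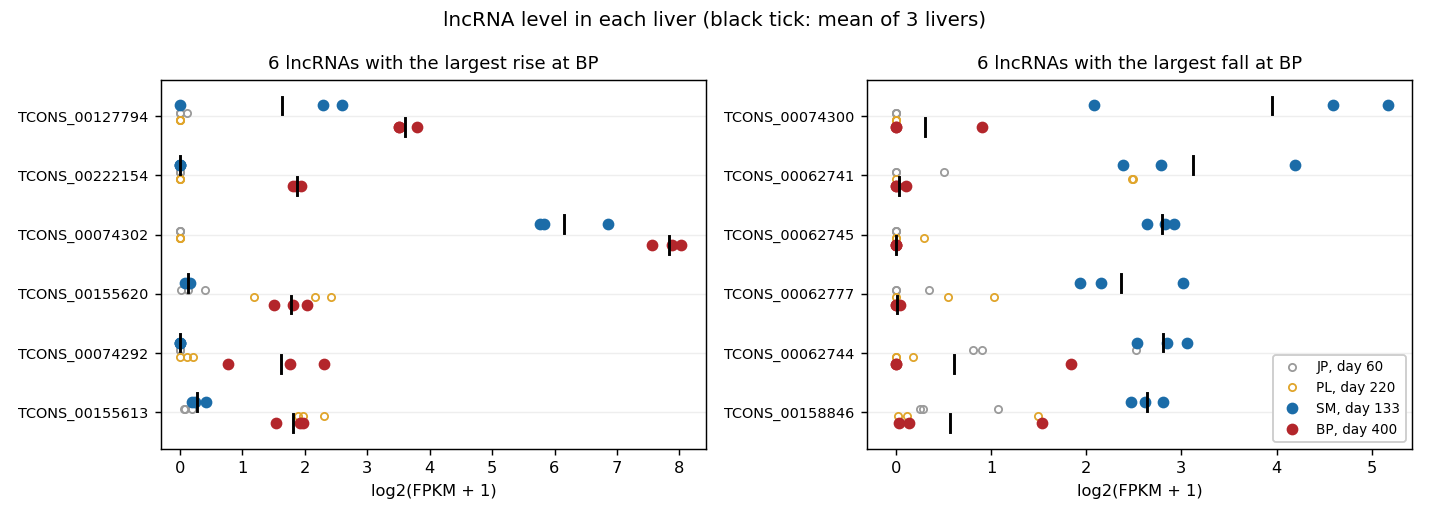
Level on the log2(FPKM + 1) scale (x axis) of the 6 lncRNAs with the largest rise (left) and the 6 with the largest fall (right) at BP, 1 point a liver, with SM and BP filled, JP and PL open, and a black tick at the mean of 3 livers. TCONS_00155620 and TCONS_00155613 are high in PL livers too, whereas TCONS_00222154 and TCONS_00074302 are at 0 in all JP and PL livers.

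The abundant lncRNA that rose was TCONS_00074302, at 115, 53.6 and 55.8 FPKM at SM and at 188, 236 and 260 FPKM at BP. The BP livers lay above all SM livers, and it was listed at 0 in every JP and PL liver. The mean was 3.04-fold higher at BP (log2 difference 1.67, SE 0.29, limma adjusted p = 0.00805), and the fit of the 6 livers gave an adjusted p of 0.0788. Some lncRNAs close to it in number were listed above 0 in a single liver. These were TCONS_00074293 (261 FPKM, BP replicate 1), TCONS_00074299 (37.6 FPKM, BP replicate 2) and TCONS_00074291 (24.8 FPKM, SM replicate 3). Whether TCONS_00074302 shares fragments with such transcripts was not tested, so its own level is uncertain. TCONS_00222154 was listed at 0 in all SM, JP and PL livers and was at 2.85, 2.50 and 2.64 FPKM at BP (limma adjusted p = 2.57e-07). TCONS_00038299, named after its values were seen, was also listed at 0 in all SM livers and was at 1.32, 1.49 and 2.81 FPKM at BP (limma adjusted p = 0.000675). The fit of the 6 livers gave weaker adjusted p of 0.00234 and 0.0311. Both passed the filter through their BP livers only, and both were called in all 14 alternatives. TCONS_00127794 was at 5.08, 3.91 and 0 FPKM at SM and at 10.3, 12.9 and 10.4 FPKM at BP (log2 difference 1.97, SE 0.50, limma adjusted p = 0.0471), and was called in 3 of the 14.

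Close numbers in the assembly often mark overlapping transcripts. Where positions were known, 477 of 694 pairs of consecutive numbers overlapped (68.7%). TCONS_00155613, TCONS_00155619 and TCONS_00155620 rose together. Of these, TCONS_00155619 and TCONS_00155620 have consecutive numbers. The positions of the 3 were not known, so they may share fragments, which was not tested. TCONS_00155613 was at 0.141, 0.336 and 0.178 FPKM at SM and at 1.91, 2.78 and 2.93 FPKM at BP (log2 difference 1.53, SE 0.16, limma adjusted p = 0.000515). TCONS_00155620 went from 0.0596, 0.119 and 0.0981 FPKM to 3.09, 2.52 and 1.86 FPKM (log2 difference 1.66, SE 0.27, limma adjusted p = 0.00542). In both, every BP liver was several times the highest SM liver. The 3 were the lncRNAs called higher at BP and also called higher at PL than at JP (0.443% of all tested lncRNAs, of which 0.825% were called in either direction), with 2.73 to 3.97 FPKM of TCONS_00155613 and 1.28 to 4.38 FPKM of TCONS_00155620 in the PL livers.

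TCONS_00155619 was 1 of 5 lncRNAs that the study chose for quantitative PCR, and its primers are shown as the sequences the study used to measure it. Whether they amplify it alone was not tested. TCONS_00179354 is shown beside it. Its SM and BP values did not overlap either, nor did those of TCONS_00037924, whose primers are not shown.
TCONS_00155619 forward: catcaactccagccttcctctgc
TCONS_00155619 reverse: cagcctgcggatacttccaagtc
TCONS_00179354 forward: ctgatggaagtcaggcagctctc
TCONS_00179354 reverse: acaaggcaggtatcatgctggaag
TCONS_00155619 was at 0.0339, 0.598 and 0.153 FPKM at SM and at 1.66, 3.33 and 2.45 FPKM at BP (log2 difference 1.46, SE 0.26, limma adjusted p = 0.00811). Every BP liver lay well above every SM liver, and 13 of 14 alternatives called it, while the 6 livers alone gave an adjusted p of 0.0577. TCONS_00179354 was at 0.0147, 0.181 and 0.07 FPKM at SM and at 1.49, 1.56 and 1.21 FPKM at BP. Although the stages were far apart, it did not pass (log2 difference 1.15, SE 0.36, limma adjusted p = 0.105), while the fit of the 6 livers alone gave 0.0229. Its PL livers ranged from 2.44 to 11.1 FPKM.

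The paper reports that PCR and sequencing changed alike at most stages for the genes and lncRNAs it chose. None of the other 3 lncRNAs chosen for PCR was called here, and TCONS_00220501 was not tested. TCONS_00037924 was at 6.92, 6.45 and 7.21 FPKM at SM and at 10.7, 9.19 and 11.9 FPKM at BP (log2 difference 0.55, SE 0.48, limma adjusted p = 0.614), without overlap. Its JP livers were at 25.3 to 76.5 FPKM and its PL livers at 1.05 to 5.88 FPKM. TCONS_00083873 was at 0.395, 0.584 and 1.06 FPKM at SM and at 0.312, 1.56 and 0.692 FPKM at BP (log2 difference 0.11, SE 0.42, limma adjusted p = 0.922), and the stages overlapped. TCONS_00220501 was listed at 0 in 5 of the 6 livers and was at 52.4 FPKM in BP replicate 1, so it was not tested.

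The largest fall among lncRNAs was that of TCONS_00074300, from 35.0, 3.25 and 23.1 FPKM at SM to 0.873, 0 and 0 FPKM at BP (log2 difference -3.65, SE 0.59, limma adjusted p = 0.00537), and the fit of the 6 livers ended the call (adjusted p = 0.0904). It was listed at 0 in all JP and PL livers, as was TCONS_00074302, which stands close to it in number and rose. Between them, TCONS_00074301 was at 1.55, 2.11 and 0.620 FPKM at SM and at 14.2, 123 and 2.89 FPKM at BP and did not pass (limma adjusted p = 0.0775). TCONS_00074304, the most abundant lncRNA of the 6 livers, was at 421, 756 and 417 FPKM at SM and at 926, 880 and 1376 FPKM at BP (log2 difference 1.02, SE 1.27, limma adjusted p = 0.744). Its BP livers lay above its SM livers, and its JP and PL livers at 0.12 to 184 FPKM. TCONS_00074301 was named after its values were seen.

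A run of 4 falling lncRNAs was numbered from TCONS_00062741 to TCONS_00062746. TCONS_00062745 was at 6.09, 5.22 and 6.60 FPKM at SM and listed at 0 in all BP livers (limma adjusted p = 2.38e-07), with 0.228 FPKM in 1 PL liver and 0 in the other 5 JP and PL livers. It passed the filter through its SM livers only, and the fit of the 6 livers gave a weaker adjusted p of 0.000995. TCONS_00062741 fell from 5.90, 17.3 and 4.24 FPKM to 0, 0.0801 and 0 FPKM (limma adjusted p = 0.0126). TCONS_00062746 fell from 2.35, 2.22 and 1.09 FPKM to 0.131, 0 and 0 FPKM (limma adjusted p = 0.000889). The SM livers were clearly above the BP livers in each. TCONS_00062744 was at 6.20, 4.77 and 7.31 FPKM at SM and at 0, 2.58 and 0 FPKM at BP (limma adjusted p = 0.0307), and 4 of 14 alternatives called it. Outside the run, TCONS_00062777 fell from 2.81, 7.10 and 3.46 FPKM to 0, 0 and 0.0276 FPKM (limma adjusted p = 0.0011). Of the tested lncRNAs numbered between these, TCONS_00062743 and TCONS_00062776 were not called and had differences of 0.44 and 0.45 on the log2 scale, and TCONS_00062752, TCONS_00062765 and TCONS_00062775 were not called and had -0.13, -0.77 and -0.71.

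Among the 101 called lncRNAs, 29 fell into 9 runs in which numbers lay at most 5 apart. In 8 of the runs all members moved in 1 direction, and the exception was TCONS_00074300 with TCONS_00074302. How often all tested lncRNAs stand this close in number or move together was not counted. Of the 101, 63 were lower at BP, and lncRNAs close in number may overlap, so these counts are a description only. The largest run held 7 lncRNAs from TCONS_00158845 to TCONS_00158857, all lower at BP. In it, TCONS_00158846 was at 6.0, 4.56 and 5.16 FPKM at SM and at 1.91, 0.0200 and 0.101 FPKM at BP (log2 difference -2.07, SE 0.44, limma adjusted p = 0.0213). It was called in 6 of 14 alternatives, and the adjusted p was 0.0788 in the 6 livers and 0.13 after scaling. TCONS_00158849 was at 3.32, 2.88 and 3.56 FPKM at SM and at 1.31, 0.0356 and 0.128 FPKM at BP (log2 difference -1.61, SE 0.27, limma adjusted p = 0.00556), and the 6 livers gave 0.0788. BP replicate 1 was the highest BP liver for both. It was also the highest BP liver for 37 of the 55 falling lncRNAs with a value above 0 at BP, and for 1878 of 4916 tested lncRNAs. A run of 5, TCONS_00166096 to TCONS_00166103, fell by 0.75 to 0.97 on the log2 scale with even BP livers, as in TCONS_00166102 with 2.77, 2.66 and 2.79 FPKM at SM and 1.06, 1.1 and 1.0 FPKM at BP (limma adjusted p = 0.0105).

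SM had the highest mean of the 4 stages for 63 of the 63 falling lncRNAs and for 48.4% of all tested lncRNAs, and BP could not be highest in a set chosen as lower at BP. In the JP and PL livers the medians of the 63 were 0.04 to 0.21 on the log2 scale, and those of all tested lncRNAs 0.15 to 0.22. These ranges overlapped through JP replicate 1 only, where the medians were 0.21 and 0.17. In every other JP and PL liver the 63 had the lower median. Of the 38 rising lncRNAs, BP had the highest mean for 34 and PL for 4, beside 35.2% and 8.29% of all tested, and 20 had a higher mean at PL than at JP, as had 47% of all tested lncRNAs. Of the 4970 tested lncRNAs, 54 were above 0.1 FPKM in all SM livers and listed at 0 in all BP livers, and 28 showed the opposite. Called were 8 of the 54 and 8 of the 28, beside 2.03% of all tested lncRNAs. Above 1 FPKM there were 4 (TCONS_00062745, TCONS_00210563, TCONS_00215147 and TCONS_00221672) and 2 (TCONS_00038299 and TCONS_00222154). Transcripts chosen in this way differ between the stages by their choice. TCONS_00215147 was at 1.24, 1.72 and 1.94 FPKM at SM and was listed at 0 in the other 9 livers (limma adjusted p = 3.1e-05). It passed the filter through its SM livers only.

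The study sorted lncRNAs into time profiles and into modules linked to mRNAs. It made these groups on the same livers, so their direction is not independent evidence. The modules were built only from transcripts that the study had called differentially expressed between stages. Their shares of called members are thus partly set by that choice, and all tested lncRNAs are no like background for them. Of 506 tested members of profile 42, 14 fell and 0 rose at BP, with a median of -0.22 on the log2 scale. Of 131 tested members of profile 28, 12 rose and 0 fell, with a median of 0.31, and they included TCONS_00074302, TCONS_00127794 and TCONS_00222154. Profile 41 had 3 rising lncRNAs of 45 and profile 39 had 2 of 37, TCONS_00155619 and TCONS_00155620. Profiles 48, 38, 46 and 29 had 0 called by limma. In module 3, 19 of 66 tested members fell (28.8%) and 1 rose, with a median of -0.48, and TCONS_00062745 and TCONS_00074300 were among the falls. Module 1 had 5 of 185 in each direction, and module 2 had 0 called of 24 tested. Over all tested lncRNAs 1.27% fell and 0.765% rose.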

How the data were processed

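The authors removed adaptors, low quality and ribosomal reads, aligned with HISAT2 2.1.0 to Gallus_gallus-5.0, assembled with StringTie 1.3.3 and deposited FPKM values, 1 table for mRNAs and 1 for lncRNAs, without pooling livers. Depth was taken from the study's list of clean reads. The FPKM hold no counts, so no counting interval is given. As each value is relative to its library, more fragments on a few abundant mRNAs can lower the values of others. The shares given here are of summed FPKM and not of fragments, and whether they lowered other values was not tested.

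log2(FPKM + 1) was fitted in R 4.3.3 with limma 3.58.1, with all 12 livers, a mean for each of 4 stages and a variance trend. mRNAs and lncRNAs were fitted apart, for transcripts above 0.1 FPKM in at least 3 of the 6 SM and BP livers. p-values were adjusted over all tested (Benjamini and Hochberg). The authors tested read counts with edgeR. The p-values rest on the spread between birds within a stage, pooled over the 4 stages. Through the variance trend they also depend on the mean level of a transcript over all 12 livers. Where a transcript was listed at 0 in all livers of a stage, that stage added no spread to the pool. TCONS_00074300 had log2 SDs of 1.64 (SM), 0.523 (BP), 0 (JP) and 0 (PL). The SE and p of such transcripts can be smaller than the SM and BP livers alone would give. Tables, exact permutation tests and figures used Python 3.11.15 (matplotlib 3.10.9, pandas 2.3.3, scipy 1.17.1, numpy 2.4.6). The fit was tested on simulated livers.

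The members, lists and alternatives were chosen with earlier results of these data known. Named by rule were those with the largest change in each direction (10 mRNAs and 6 lncRNAs, called, with SM and BP values apart), the 8 mRNAs and 4 lncRNAs with the highest mean FPKM, and the 5 lncRNAs of the PCR. The alternatives were another added value, other filters, scaling, no trend, the 6 livers alone, a replicate block and livers left out. 0 of 18260 mRNA IDs could be matched to a symbol, so pathway lists, cell type markers, proteins and promoters were not used.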

Additional observations from a re-analysis of the deposited data

How the results depend on the processing

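No called transcript changed direction in an alternative that tested it, and the filter at 1 FPKM left 25 called mRNAs and 55 called lncRNAs untested. With livers left out in turn, PL replicate 3 included, the called mRNAs numbered 83 to 440 (36 to 132 higher, 43 to 308 lower at BP) and the called lncRNAs 79 to 115 (29 to 50 higher, 45 to 73 lower). The mRNAs called lower numbered 82 after median-ratio scaling and 78 in the fit of the 6 livers. That fit called 136 mRNAs and 26 lncRNAs. Of these, 87 and 23 were among the 203 and 101 main calls, so most main calls did not pass without the JP and PL livers. The lncRNA calls numbered 180 with an added value of 0.1 (76 higher, 104 lower), 55 without a filter (21 and 34), 44 above 1 FPKM (15 and 29), 37 after scaling (19 and 18) and 26 in the 6 livers (13 and 13). With the replicate number as a block, 154 mRNAs and 88 lncRNAs were called, of which 138 and 84 were among the main calls. Same-numbered SM and BP livers were not treated as pairs, since the labels name nothing that they share. Their deviations had correlations of -0.05 to -0.02 (mRNAs) and 0.01 to 0.09 (lncRNAs). Differently numbered livers had -0.03 to 0.07 and -0.09 to 0.06. With 3 livers a stage, these values cannot show whether livers were linked. Of the named transcripts only TCONS_00083873, which was not called, turned direction, to -0.02 without SM replicate 1 and -0.15 without BP replicate 2 (0.33 at most, without BP replicate 1). Fits with fewer livers have fewer residual degrees of freedom, but the cause of these changes in calls and in direction was not tested. For the transcripts named by rule and a few others (46 in all), 499 results kept direction and side of the threshold, 138 lost and 3 gained the call.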
